A study of Mus musculus with 2 samples.

Results

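Non-classical monocytes, also called patrolling monocytes, were taken from single-cell RNA sequencing of the lungs of mice bearing 4T1 tumors, and 333 of the 16995 cells that passed quality limits met the rule for them. Both groups were female BALB/cJ mice, 12 weeks old, that had been inoculated with 100000 cells of 4T1, a mouse mammary carcinoma line that metastasises to the lung. The study's methods name the line as 4T1-luc2-tdTomato, a form that carries a luciferase and a red fluorescent protein. The saline group was given saline intravenously, and the NP group was given cargo-free nanoparticles made of poly(lactide-co-glycolide) (PLG). Both received 5 doses, 1 every 3 days from day 1 after inoculation, and the lungs were collected at day 14. Per the labels the lungs of 4 mice were pooled in each group, and each pool gave 1 library, so the spread between mice was not measured. The study's methods give another number of pooled mice than the labels. No test between the groups was possible. Each interval below is a 95% interval that covers counting error only, and the treatment and the library cannot be told apart. All mice carried a tumor, and lungs of tumor-free mice were not analysed here.

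Monocytes circulate in classical and non-classical forms. Classical monocytes carry Ly6C and the chemokine receptor Ccr2, which takes them out of the marrow and into inflamed tissue. Non-classical monocytes arise from them under the transcription factor Nr4a1, keep little Ly6C and Ccr2, and crawl along the wall of small vessels with the integrin Itgal and the receptor Cx3cr1. In the lung they are known for clearing particles, damaged cells and tumor cells from the capillary bed. An intermediate form carries marks of both.

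The members were chosen from their RNA counts. A UMI is a tag that marks 1 captured RNA molecule. A kept cell had 500 to 5000 detected genes and under 7.5% of its UMIs from mitochondrial genes. A gated monocyte had at least 1 UMI of Csf1r, the receptor for the monocyte growth factor, and at least 5 of lysozyme Lyz2. It had under 5% of its UMIs from the neutrophil genes S100a8 and S100a9, and few UMIs of C1q, alveolar macrophage and dendritic cell genes. A gated monocyte was non-classical when it held under 2 UMIs of Ccr2 and at least 2 of Ace, Treml4 and Cd300e together. Ace is angiotensin-converting enzyme, Treml4 is a receptor of the TREM family, and Cd300e is an activating receptor of myeloid cells. With at least 2 Ccr2 UMIs and at least 2 of the 3 genes the cell was intermediate, and with at least 2 Ccr2 UMIs and fewer than 2 of them it was classical.

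The saline library held 40 non-classical monocytes and the NP library held 293. Of the 8662 cells kept from the saline library they were 0.462%, with an interval of 0.33% to 0.628%. Of the 8333 kept from the NP library they were 3.52% (3.13% to 3.93%), and the NP share was 7.61 times the saline share (5.48 to 10.6). Counted within the monocyte gate alone, the share was 5.1% of 785 cells under saline (3.66% to 6.87%) and 19.3% of 1516 under NP (17.4% to 21.4%), or 3.79 times as high (2.76 to 5.22). The NP share was thus the higher with either denominator, and the intervals of the 2 libraries did not overlap. Intermediate monocytes were 24.7% of the gated saline and 30.4% of the gated NP monocytes, a ratio of 1.23 (1.07 to 1.42). Classical monocytes were 69.4% and 49.2%, a ratio of 0.709 (0.661 to 0.759). For every 100 classical monocytes the saline library held 7.34 non-classical cells and the NP library 39.3. A share of a library depends on every other cell type in it, so these values give proportions and not numbers of cells per lung.

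**Figure D1:**
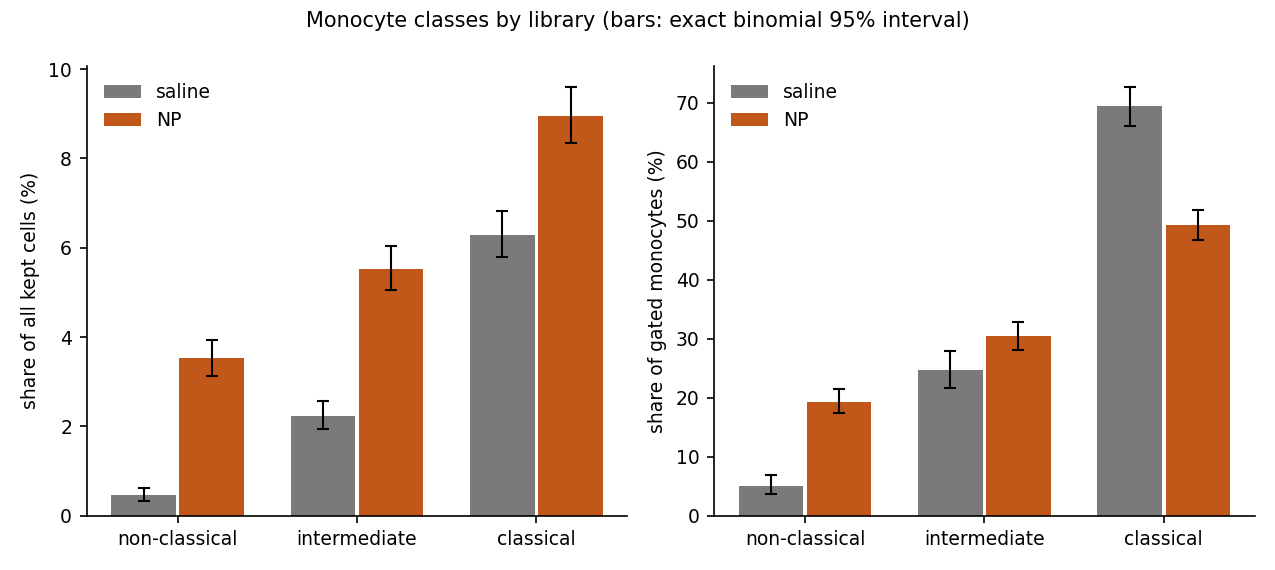
Share of 3 monocyte classes in the saline and NP libraries, as a percent of all kept cells (left) and of gated monocytes (right), with exact binomial 95% intervals. Non-classical monocytes were 0.462% and 3.52% of kept cells, and the classical share of gated monocytes was lower in the NP library.

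Few cells lay at the limit on Ace, Treml4 and Cd300e, and more lay at the limit on Ccr2. Of the cells with under 2 Ccr2 UMIs, 0 saline and 4 NP cells held exactly 1 UMI of the 3 genes and stayed outside, and 1 saline and 5 NP cells held exactly 2 and came in. The members held a median of 10 such UMIs in the saline library (2 to 26) and 15 in the NP library (2 to 46). On the Ccr2 side, 13 saline and 71 NP members held 1 Ccr2 UMI, and 11 saline and 49 NP cells with 2 Ccr2 UMIs were left out. Levels are given as CPM, the UMIs of a gene for each 1000000 UMIs summed over the cells of a class. Those cells just outside held 406 and 369 CPM of Eno3 (saline and NP), against 470 and 498 CPM in members with no Ccr2 UMI. Cells further out, with 3 or more Ccr2 UMIs, held 92.4 and 86.9 CPM. The limit on Ccr2 therefore lay inside a gradual range of cells rather than in a gap, as the plot of the gate shows.

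**Figure D2:**
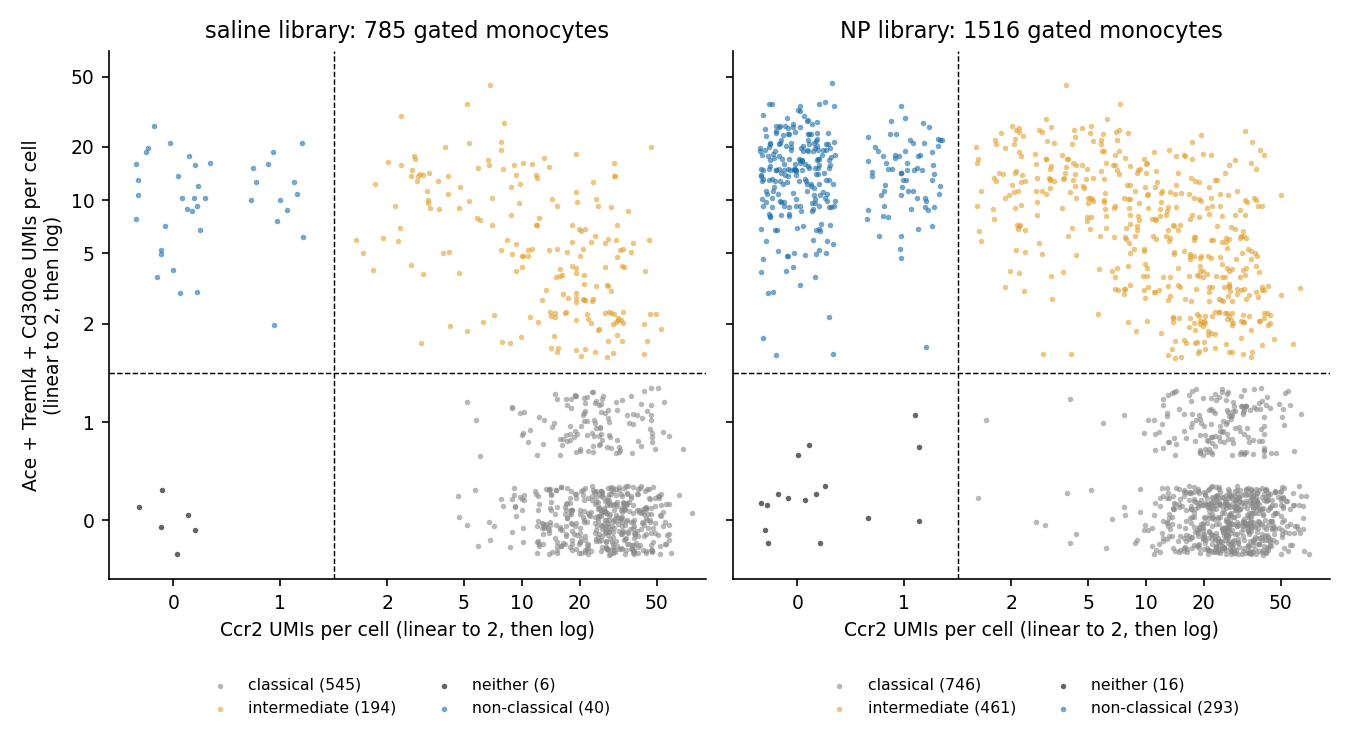
Ccr2 UMIs (x axis) against the summed UMIs of Ace, Treml4 and Cd300e (y axis) in each gated monocyte of the saline (left) and NP (right) libraries, on axes that are linear up to 2 and logarithmic above, with points spread slightly to show overlaps. Dashed lines are the gate limits, and the 40 saline and 293 NP non-classical monocytes lie at the upper left, next to intermediate cells.

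Non-classical monocytes held less RNA per cell than classical and intermediate monocytes. The median was 6318.5 UMIs per saline cell (2193 to 15241) and 8233 per NP cell (1134 to 25424), against 15724 and 16627 in classical monocytes. The saline members held 290234 UMIs in all and the NP members 2669289, so saline values are the less precise. No barcode was shared by members of the 2 libraries, although 21 barcodes occurred among the kept cells of both. A doublet caller (Scrublet) marked 0 saline and 4 NP members.

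Eno3, a muscle-type enolase, and Fcgr4, an activating receptor for the Fc part of IgG, checked the label without having been part of the gate. Eno3 was at 524 CPM in saline members (444 to 614) and 497 CPM in NP members (470 to 524), against 2.95 and 1.97 CPM in classical monocytes. Fcgr4 was at 772 CPM (674 to 880) and 871 CPM (836 to 907), against 63.8 and 63.7 CPM. Both markers were thus at similar levels in the members of the 2 libraries and far above the classical cells, as the label states. The gate genes themselves were at 786 and 681 CPM for Ace, 462 and 641 CPM for Treml4 and 331 and 359 CPM for Cd300e in saline and NP members.

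Of 5445 genes with a mean of at least 20 CPM over both classes and libraries, 12.7% were 2-fold or more higher in non-classical than in classical monocytes under saline and 9.99% under NP, and 7.68% and 5.49% were lower. These comparisons describe the members, since the gate split the same cells. Outside the gate, the 12 genes with the highest ratio in both libraries were led by Fabp4, a fatty acid-binding protein, with log2 ratios over classical monocytes of 9.81 (saline) and 8.95 (NP). Slc12a2, a sodium, potassium and chloride cotransporter, followed with 7.75 and 8.72. The others were Eno3, the leukocyte receptor Lilra5, the phosphatase Dusp16, the anti-apoptotic BCL2 relatives Bcl2a1a, Bcl2a1b and Bcl2a1d, the integrin Itgax, the tetraspanin Cd9, the adhesion molecule Pecam1 and the scavenger receptor Cd36, with log2 ratios from 4.58 (Cd36, NP) to 7.98 (Eno3, NP). The BCL2A1 genes are near-identical copies, and the split of reads among them is uncertain. Among the 8 lowest were F13a1, Retnla, Mmp8, Prtn3, Ly6c2, Ccr1 and Vcan. F13a1, coagulation factor XIII, had 1 UMI in saline and 22 in NP members, and Vcan, the proteoglycan versican, had 0 and 15.

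A list of 26 genes of non-classical identity was measured in full. Its median log2 ratio over classical monocytes was 3.45 in the saline and 3.31 in the NP library, and the median NP over saline within the members was 0.03. None of the 26 was past 2-fold between the libraries, against 4.42% of 5502 measured genes that were 2-fold or more higher in NP members and 3.65% that were lower. A measured gene had a mean of at least 20 CPM over the 2 libraries, and the median log2 ratio of all measured genes was −0.07. In classical monocytes, with more cells and deeper counts, 0.441% of 5221 genes were 2-fold or more higher and 0.326% lower, and 43.6% were higher by any amount. In intermediate monocytes 1.42% of 5355 genes were 2-fold or more higher and 0.373% lower. The saline non-classical cells held the fewest UMIs of these classes, and the part of that depth in the larger share past 2-fold was not tested. Of the 243 higher genes 134 were under 20 CPM in the saline members, so they were measured only through the NP members where they were high, and 123 of the 201 lower genes were under 20 CPM in the NP members. Counts and medians over measured genes therefore describe the lists and support nothing by themselves. With at least 20 CPM asked of each library, 109 of 4942 genes were 2-fold or more higher and 80 lower. The receptor Cx3cr1 was at 389 and 398 CPM in saline and NP members, and Nr4a1, added after its values were seen, at 1374.8 and 1359.9 CPM. Itgal was at 761 and 1011.5 CPM (log2 ratio 0.41, 0.21 to 0.61), the highest ratio of the list. The lowest were Fabp4, at 307 and 156 CPM (−0.97, −1.31 to −0.63), and S1pr5, a receptor for sphingosine 1-phosphate needed for exit from the marrow, at 121 and 73.1 CPM (−0.72, −1.25 to −0.16). The marks of the class on this list thus stayed within 2-fold between the libraries. Besides Fabp4 and S1pr5, Itgax (224 and 140 CPM, −0.68, −1.06 to −0.27), Slc12a2 (317 and 199 CPM, −0.67, −0.99 to −0.33) and Klf2 were among those lower in the NP members. Higher by any amount were 14 of the 26, against 43.7% of all measured genes.

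The 12 genes outside the gate with the highest NP over saline ratio were Cxcl2, Ccl5, Cfb, Marcksl1, Hbb-bs, Ccl4, Serpina3g, Saa3, Ier3, Il1rn, Ccnd2 and Ikbke, out of 4020 with at least 100 UMIs over both libraries. Cxcl2, a chemokine for neutrophils (chromosome 5, 90903871 to 90905938, GRCm38), had 5 UMIs in saline members and 1582 in NP members. That is 17.2 CPM (5.59 to 40.2) and 593 CPM (564 to 623), a log2 ratio of 5.10 (3.88 to 6.73). Its UMIs lay in 5 of 40 saline and 136 of 293 NP cells, so the NP level was not carried by a few cells. In classical monocytes its log2 ratio was 2.74 and in intermediate monocytes 1.90. Ccl4, which attracts monocytes and T and NK cells, had 11 and 895 UMIs, or 37.9 CPM and 335 CPM (3.15, 2.30 to 4.15). They lay in 4 saline and 99 NP cells, and 7 of the 11 saline UMIs were in a single cell.

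Cfb, complement factor B of the alternative pathway (chromosome 17, 34856374 to 34862518), had 2 saline and 430 NP UMIs, in 2 and 112 cells. With counts under 3 set to 3, a floor used for each ratio, its log2 ratio was 3.96 (2.69 to 7.60). Marcksl1, a relative of the protein kinase C substrate MARCKS, was at 24.1 and 340 CPM (3.82, 2.77 to 5.14) in 5 saline and 123 NP cells. Il1rn, the antagonist of the interleukin-1 receptor, had 2 and 217 UMIs (2.98, 1.69 to 6.62), and Ier3, an early response gene induced by NF-kB, had 3 and 225 (3.03, 1.46 to 5.32). Ccnd2, cyclin D2, had 6 and 423 UMIs (2.94, 1.80 to 4.39) in 5 and 142 cells. Ikbke, a kinase upstream of interferon production, had 1 and 200 UMIs (2.86, 1.95 to 9.75) in 1 and 106 cells. Each of these 6 genes was seen in 62 to 142 of the 293 NP cells and in at most 5 of the 40 saline cells. In a wider gate chosen after seeing the data, cells with at least 2 UMIs of Ace, Treml4 and Cd300e and more of them than of Ccr2 were taken. There Ccnd2 had a log2 ratio of 0.85 and Ccl4 of 1.45. Over all alternatives the lowest ratios were 2.49 for Cfb, 2.17 for Marcksl1, 1.76 for Il1rn, 1.59 for Ier3 and 1.60 for Ikbke.

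Other members of the 12 rested on few cells. Of 466 NP UMIs of Hbb-bs, a beta globin, 429 were in 1 cell, and its log2 ratio of 3.66 was 0.42 without the cell with most UMIs in each library. Of 1314 NP UMIs of Saa3, an acute-phase protein, 793 were in 1 cell, and 26 NP cells held any. Its log2 ratio of 3.07 was −0.06 under the wider gate and −0.31 when cells were thinned to 3000 UMIs and gated again. The gate on thinned cells asked for at least 1 UMI of Ace, Treml4 and Cd300e together and 0 of Ccr2. It took 48 saline and 316 NP cells, so values after thinning and gating again differ in the gate as well as in depth. Ccl5, a chemokine for T cells, had 0 saline and 582 NP UMIs in 33 cells, with 196 in 1 cell, and was at least 21.1-fold higher against a floor of 3 counts over the saline members. The lower limit of its exact interval was a log2 ratio of 4.10, and without the NP cell with most UMIs the log2 ratio to the floor was 3.81.

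**Figure D3:**
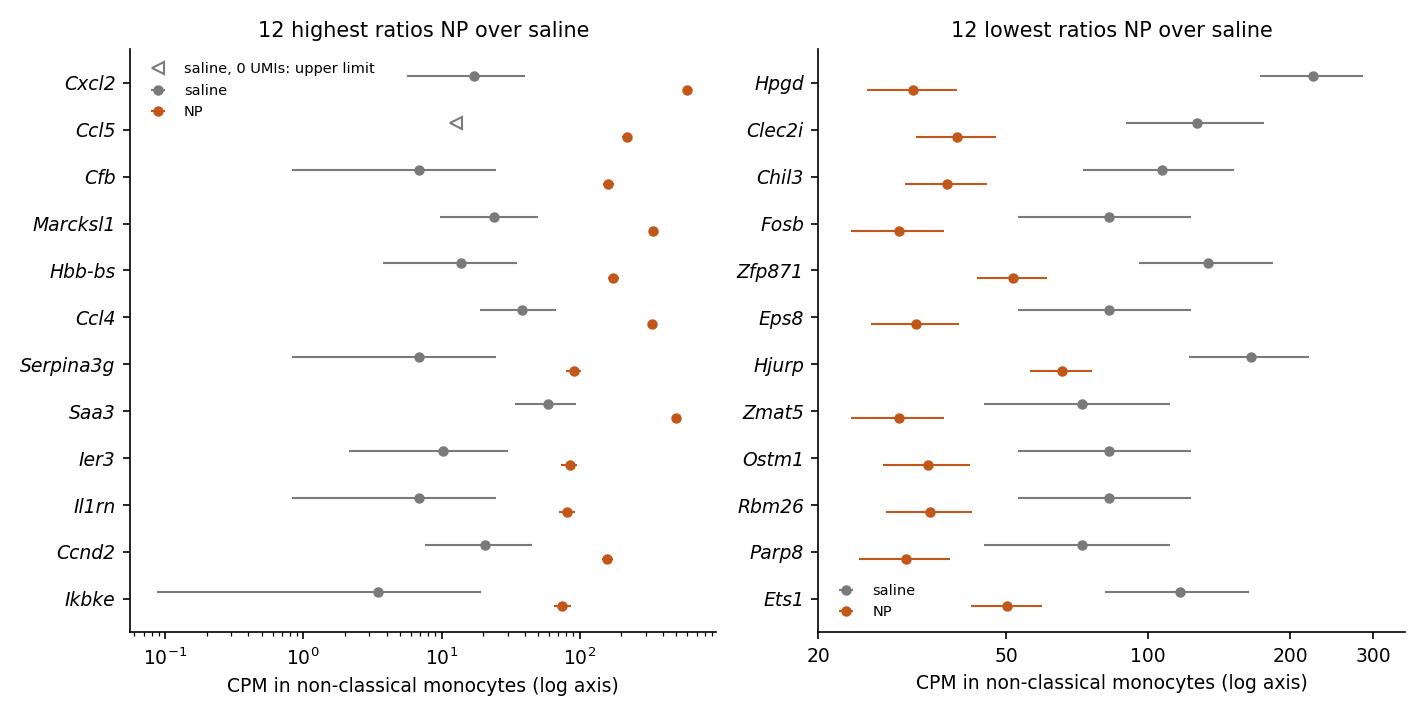
CPM (log axis) of the 12 genes with the highest (left) and lowest (right) NP over saline ratio in non-classical monocytes, among genes with at least 100 UMIs over both libraries. Bars are exact Poisson 95% intervals, and an open triangle marks the upper limit for Ccl5, which had 0 saline UMIs. NP levels on the left reach 593 CPM (Cxcl2), while the saline levels there stay under 60 CPM (Saa3, 58.6 CPM).

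The 12 lowest of the same 4020 genes were Hpgd, Clec2i, Chil3, Fosb, Zfp871, Eps8, Hjurp, Zmat5, Ostm1, Rbm26, Parp8 and Ets1. Genes low in NP members passed the limit of 100 UMIs less easily, since the NP members held most of the UMIs. The reach of the highest and lowest ratios is therefore not comparable. Left out by that limit were Scgb1a1 (107 and 5.99 CPM), Fn1 (−1.98) and Trem2 (−1.62). Hpgd, which inactivates prostaglandin E2 (chromosome 8, 56294585 to 56321043), had 65 saline and 85 NP UMIs, or 224 CPM (log2 ratio −2.81, −3.30 to −2.33) and 31.8 CPM. They lay in 17 of 40 saline and 38 of 293 NP cells. Clec2i, a C-type lectin-like protein, was at 127 and 39.3 CPM (−1.70, −2.25 to −1.11), and Ets1, a transcription factor, at 117 and 50.2 CPM (−1.22, −1.77 to −0.63). The other 9 had log2 ratios from −1.51 (Chil3) to −1.24 (Parp8), from 21 to 48 saline UMIs each. Under the wider gate 7 of these 9, all but Eps8 and Hjurp, were under 2-fold, from −0.94 (Ostm1) to −0.54 (Fosb), and with no upper limit on detected genes Ets1 was at −0.98. In classical monocytes Hpgd had a log2 ratio of −1.20 and Chil3, a chitinase-like protein, of −1.15, while the others lay between −0.45 (Fosb) and 0.14 (Clec2i).

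To set aside the difference in depth, each cell was thinned to 3000 UMIs, which left out 1 saline and 3 NP members. Fpr2, a receptor for formyl peptides and serum amyloid A (chromosome 17, 17887824 to 17893952), was then seen in 10.3% of saline members (2.87% to 24.2%) and 49.0% of NP members (43.1% to 54.9%). Without thinning the shares were 17.5% and 74.1%. B cells, which should lack it, held it in 1.86% and 0.887% of cells after thinning, with median depths of 4329 and 4485.5 UMIs per cell before thinning. Cxcl2 was seen in 5.13% of saline (0.627% to 17.3%) and 31.4% of NP members (26.1% to 37.1%), with 4.64% and 5.32% in B cells, so its saline share was near the background. Thinned classical monocytes held it in 12.1% and 32.6% of cells, so the NP share was close in both classes. Hpgd was seen in 35.9% (21.2% to 52.8%) and 7.24% (4.54% to 10.9%), with 0.696% and 2.3% in B cells. Cfb was seen in 0 of 39 saline members, which allows a share of up to 9.03%, and in 20.3% of NP members (15.9% to 25.4%). Unthinned, Cxcl2 was in 12.5% and 46.4%, Hpgd in 42.5% and 13% and Cfb in 5% and 38.2% of saline and NP members. The thinned intervals of the 2 libraries did not overlap for these 4 genes. Of all measured genes, 0.909% had a higher share of thinned cells under NP with intervals that did not overlap, and 0.981% a lower one. The genes with extreme ratios were picked on the same cells, so their counts are a description and nothing is read from them. Of the 12 genes with the highest ratio the intervals did not overlap for 5, which were Cxcl2, Cfb, Marcksl1, Ccnd2 and Ikbke, and overlapped for 7. Saa3 was seen in 10.3% of saline members (2.87% to 24.2%) and 6.55% of NP members (3.99% to 10%), with 5.34% and 1.6% in B cells and 20% and 8.87% of the members without thinning. Its intervals overlapped. Ccl4 was seen in 7.69% (1.62% to 20.9%) and 21.4% (16.8% to 26.6%). Of the 12 lowest the intervals did not overlap for Hpgd, Clec2i and Ets1 and overlapped for 9.

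The list of the TNF and NF-kB response, of cytokines, feedback inhibitors and survival genes, was the broadest. Of its 46 genes 36 were measured, and 35 of them were higher in NP members by any amount, against 43.7% of all measured genes. In this list 15 were 2-fold or more higher and none lower, against 4.42% and 3.65% of all measured genes. Of the 15, 3 were under 20 CPM in the saline members. Its median log2 ratio was 0.75, beside 0.31 in classical and 0.61 in intermediate monocytes. The list held 6835.9 CPM (6538.3 to 7143.4) in saline and 12828.1 CPM (12692.6 to 12964.7) in NP members over all 46 genes. A median of 0.59% of the UMIs of a saline cell and 1.08% of an NP cell came from it. The lower and upper quartiles were 0.486% and 0.748% over saline cells and 0.805% and 1.5% over NP cells, so the middle ranges of the cells did not overlap. Its most abundant gene, Il1b, was at 1674.5 and 2348.6 CPM (0.49, 0.35 to 0.62). The lowest was Map3k8, a kinase of the pathway, at 107 and 97.8 CPM (−0.13, −0.67 to 0.46).

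**Figure D4:**
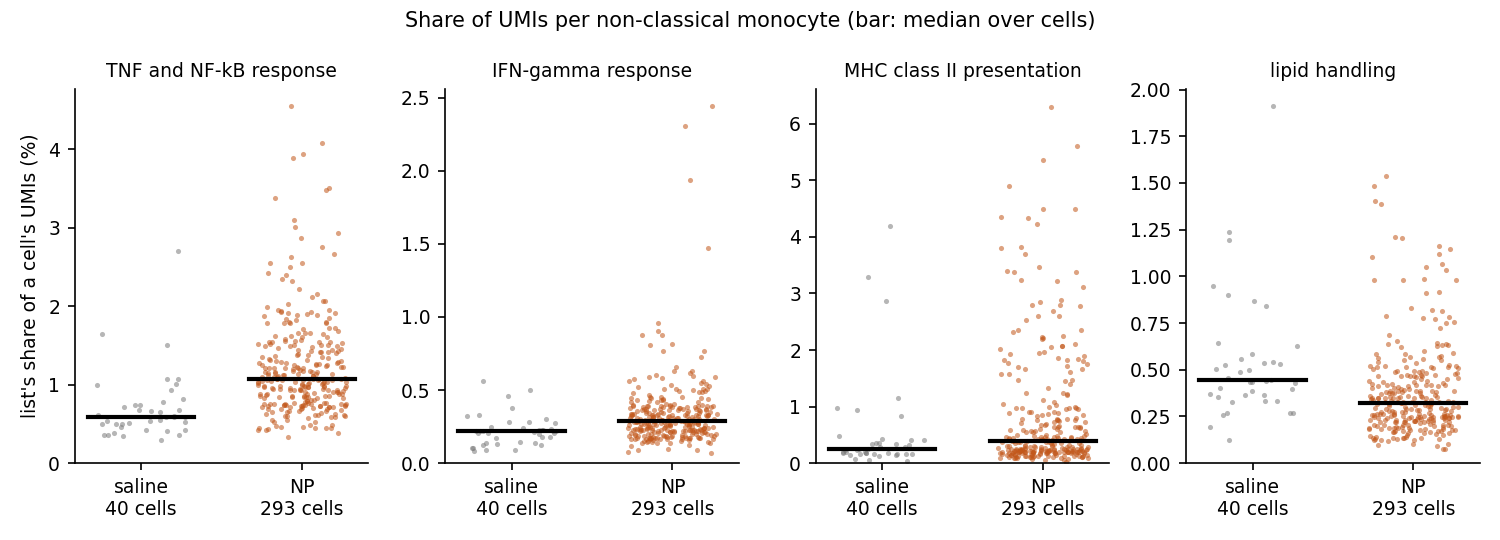
Share of UMIs from 4 gene lists in each non-classical monocyte of the saline (40 cells) and NP (293 cells) libraries, in percent, with a bar at the median over cells. The TNF and NF-kB list has medians of 0.59% and 1.08%, and MHC class II has a long upper range in both libraries.

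Id2, an inhibitor of basic helix-loop-helix transcription factors (chromosome 12, 25093799 to 25097140), stood on this list and on that of monocyte transcription factors. It was at 162 CPM in saline and 1110.4 CPM in NP members (2.78, 2.36 to 3.23), in 24 and 270 cells. Its log2 ratio was 0.43 in classical and 1.17 in intermediate monocytes. After thinning it was seen in 33.3% (19.1% to 50.2%) and 78.6% (73.4% to 83.2%) of the members, with 6.03% and 9.22% in B cells, and unthinned in 60% and 92.2%. Of 22 measured transcription factors 2 were 2-fold or more higher, Id2 and the oxysterol receptor Nr1h3 (27.6 and 92.9 CPM, 1.75, 0.75 to 2.98), and 1 was lower, Ets1. The shares over all measured genes were 4.42% higher and 3.65% lower. Cebpb, which non-classical monocytes need to survive, was at 3686.7 and 3828 CPM, and Klf2, a factor of quiescent leukocytes, at 2491.1 and 1634.1 CPM (−0.61, −0.72 to −0.49). The median of the list was −0.21.

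Some chemokines and some receptors for other attractants were higher in NP members. Of 24 listed chemokines 7 were measured, and the median was 2.52. Of the 7, 4 were 2-fold or more higher and none lower, against 4.42% and 3.65% of all measured genes. Of the 4, 3 were under 20 CPM in the saline members, and over the 4 chemokines with at least 20 CPM in each library the median was −0.01. After thinning and gating again the median was 0.65, under the wider gate it was 0.82, and with any gene of at least 1 UMI −0.20. The median of this short list thus moved with the filter and the gate. Besides Cxcl2, Ccl5 and Ccl4, the most abundant were Ccl6, at 517 and 470 CPM (−0.14, −0.38 to 0.12), and Ccl9, at 224 and 186 CPM (−0.27, −0.64 to 0.13), both ligands of Ccr1. Of 11 measured chemoattractant receptors 4 were 2-fold or more higher, 2 of these from under 20 CPM in the saline members, and the median was 0.12. Fpr2 was at 48.2 and 314 CPM (2.70, 1.95 to 3.58), in 7 saline and 217 NP cells, and Ptafr, the receptor for platelet-activating factor, at 24.1 and 128 CPM (2.41, 1.35 to 3.73). Fpr1, the other formyl peptide receptor, had 1 and 156 UMIs (2.50, 1.58 to 9.40). Cxcr4, which holds monocytes in the marrow, was at 334 and 330 CPM. Of 24 measured adhesion genes 1 was 2-fold or more higher, Icam1, the ligand of Itgal, at 41.3 and 108 CPM (1.39, 0.56 to 2.36). That count was near the 4.42% of all measured genes, and the median of the list was 0.01. The ratio of Icam1 was 0.36 after thinning and gating again. In classical monocytes it was −0.44.

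Guanylate-binding proteins are GTPases that interferon gamma induces and that attack the membranes of microbes in the cell. Of 11 listed genes 5 were measured, with a median of 2.21, beside 1.57 in classical and 2.35 in intermediate monocytes. Of the 5, 4 were 2-fold or more higher and none lower, against 4.42% and 3.65% of all measured genes. Gbp2b and Gbp5 were under 20 CPM in the saline members and measured through the NP members alone, and the median of the other 3 was 1.17. Gbp2 was at 27.6 and 135 CPM (2.29, 1.30 to 3.51), Gbp2b at 17.2 and 114 CPM (2.73, 1.49 to 4.36) and Gbp5 at 13.8 and 63.7 CPM (2.21, 0.83 to 4.10). Their saline values rest on 8, 5 and 4 UMIs, and a split of reads between the related genes Gbp2 and Gbp2b was not tested. Gbp3 was at 24.1 and 54.3 CPM, and Gbp7 at 24.1 and 42.7 CPM. Of 3 measured immunity-related GTPases, a related family, Ifi47 had a log2 ratio of 2.40 (0.83 to 4.70) and Igtp of 1.25 (0.09 to 2.72), while Irgm1 was at 31 and 48 CPM (0.63, −0.34 to 1.79). After thinning, Gbp2 was seen in 10.3% (2.87% to 24.2%) of saline and 24.5% (19.6% to 29.9%) of NP members, with 3.02% and 5.67% in B cells, and unthinned in 12.5% and 49.1%. These 2 thinned intervals overlapped, and the values are small against the depth of the saline library.

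The promoters of genes that were higher together were searched for 3 short motifs on both strands. The motifs were an NF-kB-type core, GGGANNTTCC, a GAS-type element bound by STAT dimers, TTCNNNGAA, and an ISRE-type element bound by interferon regulatory factors, GAAANNGAAA. The window was 300 bases, from 250 before to 50 after each RefSeq start, and of 27025 genes with such a window 1.63%, 9.55% and 3.99% held the 3 motifs. All 5 measured guanylate-binding protein genes held the ISRE-type motif, against 4.59% of the 4426 measured genes that had a window. Of these 5, 2 (40%) held the NF-kB-type core and 2 (40%) the GAS-type element, against 1.9% and 8.04% of the measured genes. Of the 29 measured TNF and NF-kB genes with a window, 3 held the NF-kB-type core (10.3%), against 1.9% of the measured genes, and of 19 in the IFN-gamma list 7 held the GAS-type element (36.8%), against 8.04%. The same 19 held no NF-kB-type and no ISRE-type match. In the TNF and NF-kB list 4 (13.8%) held the GAS-type and 1 (3.45%) the ISRE-type motif, and of 7 class II genes none held the NF-kB-type or the GAS-type and 1 the ISRE-type motif. Of the 195 genes with a window that were 2-fold or more higher, 2.05%, 9.74% and 6.67% held the 3 motifs. The guanylate-binding protein genes lie side by side on chromosome 3 and are copies of each other, so their promoters are not independent, and a match is a description and not a bound site. The 250 bases before the start are printed below from the RefSeq promoter table (GRCm38.p6, all on the plus strand), for the chemokine with the highest ratio and for the 3 guanylate-binding protein genes with the highest ratios, with motif matches in capitals. They are chr5:90903649-90903898 for Cxcl2, chr3:142496684-142496933 for Gbp5, chr3:142620413-142620662 for Gbp2 and chr3:142594597-142594846 for Gbp2b.
Cxcl2: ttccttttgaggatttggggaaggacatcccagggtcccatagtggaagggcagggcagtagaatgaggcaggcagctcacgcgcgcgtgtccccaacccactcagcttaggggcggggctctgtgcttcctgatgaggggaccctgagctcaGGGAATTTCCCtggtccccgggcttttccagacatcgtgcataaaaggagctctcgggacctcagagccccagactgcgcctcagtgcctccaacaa
Gbp5: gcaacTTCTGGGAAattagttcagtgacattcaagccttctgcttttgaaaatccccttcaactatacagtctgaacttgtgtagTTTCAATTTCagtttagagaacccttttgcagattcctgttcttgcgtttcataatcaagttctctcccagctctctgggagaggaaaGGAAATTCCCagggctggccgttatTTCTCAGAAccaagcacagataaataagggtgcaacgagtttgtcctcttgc
Gbp2: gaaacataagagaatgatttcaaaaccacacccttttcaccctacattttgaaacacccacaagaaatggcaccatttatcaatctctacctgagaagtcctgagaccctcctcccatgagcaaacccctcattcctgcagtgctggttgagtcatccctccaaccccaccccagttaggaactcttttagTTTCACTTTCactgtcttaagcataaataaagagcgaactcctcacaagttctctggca
Gbp2b: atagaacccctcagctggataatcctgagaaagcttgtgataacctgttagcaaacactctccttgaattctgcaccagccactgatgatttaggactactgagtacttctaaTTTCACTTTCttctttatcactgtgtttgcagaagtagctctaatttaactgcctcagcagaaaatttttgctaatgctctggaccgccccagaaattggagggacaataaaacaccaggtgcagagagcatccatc
In Cxcl2 the capitals are 2 overlapping NF-kB-type matches, 97 to 88 bases before the start on the plus strand and 96 to 87 on the minus strand. In Gbp5 they are, from the left, a GAS-type match, an ISRE-type match, an NF-kB-type match and another GAS-type match. In Gbp2 and Gbp2b they are ISRE-type matches with the same letters, 59 to 50 and 137 to 128 bases before the start. Gbp2 also held an NF-kB-type match in its window, outside the printed bases.

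The broader list of the IFN-gamma response, from transcription factors to surface ligands, had 23 of 40 genes measured. Its median was 1.11, beside 0.31 in classical and 0.88 in intermediate monocytes. Of the 23, 12 were 2-fold or more higher and none lower, against 4.42% and 3.65% of all measured genes. Of the 12, 6 were under 20 CPM in the saline members, and the median of the 17 genes with at least 20 CPM in each library was 0.56. Over all 40 genes it held 2191.3 CPM (2024.3 to 2368.5) in saline and 3515.5 CPM (3444.8 to 3587.4) in NP members. Besides Ccl5 and Marcksl1 its highest gene was Serpina3g, an inhibitor of cathepsins, with 2 saline and 241 NP UMIs (3.13, 1.84 to 6.77) in 1 and 108 cells. Its most abundant gene, the kinase Pim1, was at 699 and 810 CPM, and the feedback inhibitor Socs3 was at 389 and 245 CPM (−0.67, −0.96 to −0.36). The list of antiviral genes induced by type I interferon had a median of 0.27, beside 0.48 in classical and 0.53 in intermediate monocytes. Of its 31 measured genes 4 were 2-fold or more higher and none lower. Of the 4, 2 were under 20 CPM in the saline members. Isg15, a ubiquitin-like modifier, was at 17.2 and 65.9 CPM (1.94, 0.69 to 3.58) and Ifi27l2a at 338 and 747 CPM (1.14, 0.85 to 1.45), with a ratio of 0.33 after thinning and gating again and 0.35 under the wider gate. The most abundant, Ifitm3 and Ifitm2, which keep viruses from fusing with membranes, were at 3566.1 and 3111.3 CPM and at 1936.4 and 1625.9 CPM. With at least 20 CPM in each library, 2 of 27 type I genes and 6 of 17 IFN-gamma genes were 2-fold or more higher, against 109 of all 4942 such genes. A difference between the 2 lists was not tested.

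Of 22 measured MHC class I genes 20 were higher by any amount, against 43.7% of all measured genes, and their median was 0.56. Only 1 of the 22, H2-Q6, was past 2-fold (41.3 and 114 CPM, 1.46, 0.64 to 2.43, or 0.64 under the wider gate). That count was near the 4.42% of all measured genes that were 2-fold or more higher. The most abundant, H2-D1, was at 6970.2 and 7218.4 CPM, and B2m, the light chain of class I, at 3514.4 and 4661.9 CPM (0.41, 0.32 to 0.50). Psmb9 of the immunoproteasome was at 186 and 368 CPM (0.98, 0.59 to 1.41). For MHC class II, which presents to CD4 T cells, H2-Aa was at 817 CPM in saline and 1809.8 CPM in NP members (1.15, 0.96 to 1.34), H2-Eb1 at 655 and 1444.6 CPM (1.14, 0.93 to 1.36) and the invariant chain Cd74 at 1922.6 and 3952.7 CPM (1.04, 0.92 to 1.17). These were the only 3 of 10 measured genes of the list past 2-fold. Higher by any amount were 5 of the 10, and the median of the list was 0.17. That median moved with the choice of cells and filter, to 1.28 in members with no Ccr2 UMI, 0.92 under the wider gate, 0.74 after thinning and gating again and −0.07 with any gene of at least 1 UMI. After thinning and gating again H2-Eb1 was at 0.87 and Cd74 at 0.74. Lgmn, a lysosomal protease, was at 141 and 88.4 CPM.

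The class II genes were uneven among cells. H2-Aa was found in 13 of 40 saline and 183 of 293 NP members, and 83 of the 237 saline UMIs lay in 1 cell. Without the cell with most UMIs in each library its log2 ratio was 1.71, and that of Cd74 1.48. After thinning, H2-Aa was seen in 23.1% (11.1% to 39.3%) of saline and 53.8% (47.9% to 59.6%) of NP members, and unthinned in 32.5% and 62.5%. In classical monocytes it was seen in 16.9% and 23.2% of thinned cells. B cells gave no background share for H2-Aa, since 99.3% and 98.6% of them held it after thinning. Free RNA, from barcodes with under 50 UMIs, held 316 CPM of H2-Aa in the saline and 746 CPM in the NP library. The part of free RNA in these shares of cells was not tested. The upper quartile of the share of UMIs from the class II list was 0.981% over NP members and 0.406% over saline members. The defining dendritic cell genes Flt3, Xcr1 and Cd209a were at 0 in both libraries, and Zbtb46 had 2 saline and 8 NP UMIs. The gate used those genes, so their absence was set by the choice of members. Of costimulatory and checkpoint ligands, Cd274, which encodes PD-L1, was at 99.9 and 233 CPM (1.22, 0.69 to 1.81), in 16 and 238 cells. After thinning it was seen in 28.2% (15% to 44.9%) and 49.7% (43.8% to 55.6%) of the members, intervals that overlapped, with 8.12% and 8.69% in B cells, and unthinned in 40% and 81.2%. Under the wider gate its ratio was 0.99. In classical monocytes it was 2.27. Cd40 had 9 and 185 UMIs (1.16, 0.20 to 2.31) and Ebi3, a chain of interleukin-27, 6 and 125 (1.18, 0.02 to 2.65), and after thinning and gating again their ratios were −0.07 and 0.35. The checkpoint Vsir was at 221 and 164 CPM (−0.43, −0.81 to −0.02), and the median of the 10 measured genes was 0.16.

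Apoe, Pltp and Trem2 had lower levels in NP members, though each was under 2-fold in some settings. Of 13 measured genes of macrophage differentiation 4 were 2-fold or more lower and none higher, against 3.65% and 4.42% of all measured genes. Of the 4, 2 were under 20 CPM in the NP members. The median of the list was −0.33, beside −0.18 in classical and −0.12 in intermediate monocytes. Apoe, the lipid carrier apolipoprotein E, was at 3373.1 CPM (saline) and 1666.7 CPM (NP), a log2 ratio of −1.02 (−1.12 to −0.92). Its log2 ratios of −0.89 and −0.98 in classical and intermediate monocytes were close to that value. Of its 979 saline UMIs 214 were in 1 cell, and without the cell with most UMIs in each library the ratio was −0.70, and with Ccr2 at 0 it was −0.82. Pltp, the phospholipid transfer protein, was at 358 and 158 CPM (−1.18, −1.49 to −0.85), in 28 and 167 cells, or −0.98 with no upper limit on detected genes, and Trem2, a lipid receptor of macrophages, had 10 and 30 UMIs (−1.62, −2.69 to −0.42), or −0.82 under the wider gate. Ctsd, a lysosomal protease, was at 165 and 272 CPM (0.72, 0.29 to 1.17), the highest of the list. The 20 lipid handling genes together held 5554.1 CPM (5286.3 to 5832.1) in saline and 3677.4 CPM (3605 to 3750.9) in NP members, of which Apoe held 3373.1 and 1666.7 CPM. By median 0.444% of the UMIs of a saline cell and 0.321% of an NP cell came from them. Of the 18 measured 1 was 2-fold or more higher and 1 lower, and their median log2 ratio was −0.16, so the list as a whole lay near the median of all genes.

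**Figure D5:**
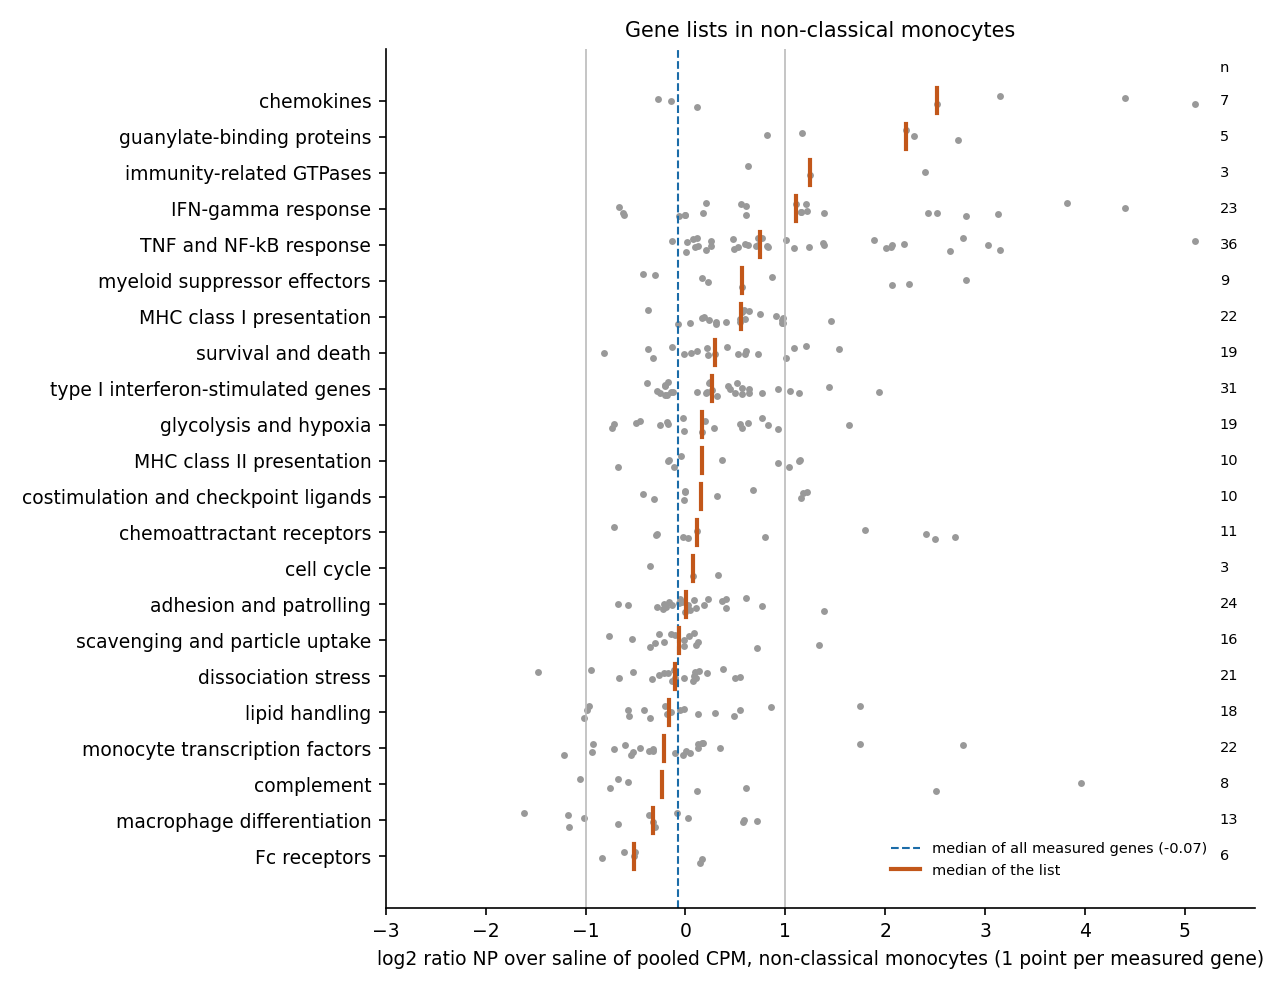
Log2 ratio NP over saline of each measured gene (points) of 22 gene lists in non-classical monocytes, with the median of each list (thick bars), the number of measured genes (n), 2-fold limits (grey lines) and the median of all 5502 measured genes (dashed, −0.07). Chemokines (2.52), guanylate-binding proteins (2.21) and the IFN-gamma response (1.11) have high medians, which are −0.01, 1.17 and 0.56 with at least 20 CPM in each library, and Fc receptors (−0.52) and macrophage differentiation (−0.33) the lowest.

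Genes by which monocytes take up particles had medians near that of all genes or below it. Of 16 measured scavenging genes 1 was 2-fold or more higher, Cd14, a coreceptor for bacterial lipopolysaccharide, at 148 and 375 CPM (1.34, 0.90 to 1.82), and the median was −0.06. The shares over all measured genes were 4.42% higher and 3.65% lower. Cd36 was at 96.5 and 106 CPM, and Msr1, a scavenger receptor, was at 27.6 and 45.3 CPM from 8 and 121 UMIs. None of 6 measured Fc receptor genes was past 2-fold, with a median of −0.52. Their most abundant, Fcer1g, the common signalling chain, was at 3476.5 and 3847.5 CPM. Fcgrt, which recycles IgG, was at 286 and 160 CPM (−0.84, −1.18 to −0.48), and the inhibitory receptor Fcgr2b at 224 and 157 CPM (−0.51, −0.89 to −0.11). Of 8 measured complement genes 2 were 2-fold or more higher and 1 lower, with a median of −0.23, or −0.63 over the 6 with at least 20 CPM in each library. The list summed to 1116.3 CPM in saline and 1149 CPM in NP members. Its higher genes were Cfb and C3, the central component, at 44.8 and 254 CPM (2.51, 1.72 to 3.42), in 8 and 192 cells. In classical monocytes C3 had a log2 ratio of 0.19.

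Of 19 measured survival and death genes 4 were 2-fold or more higher and none lower, with a median of 0.30. Among all measured genes 4.42% were 2-fold or more higher and 3.65% lower. Under 20 CPM in the saline members was 1 of the 4. Bcl2a1b was at 307 and 653 CPM (1.09, 0.78 to 1.41), but at a ratio of 0.37 after thinning and gating again, and its copy Bcl2a1d had a log2 ratio of 0.53 (0.30 to 0.77). Since reads may be split among copies, Bcl2a1a, Bcl2a1b and Bcl2a1d were also summed, and held 1095.7 CPM in saline and 1932 CPM in NP members (0.82, 0.65 to 0.99), under 2-fold. The death-promoting Bcl2l11, which encodes BIM, had 5 and 134 UMIs (1.54, 0.28 to 3.19) and a ratio of 0.53 under the wider gate. Mcl1, an anti-apoptotic gene, was at 961 and 876 CPM. Of 9 measured genes of suppressive myeloid cells 3 were 2-fold or more higher, all from under 20 CPM in the saline members, and the median was 0.57. Acod1, which makes itaconate, had 0 saline and 130 NP UMIs in 55 cells, at least 4.71-fold higher against the floor, with a lower limit of 1.92 on the log2 scale, but its ratio to the floor was 0.70 on that scale after thinning and gating again. Il4i1, an amino acid oxidase, had 1 and 193 UMIs, of which 96 lay in 1 NP cell and whose log2 ratio was then 0.91, and Tgfb1 was at 427 and 347 CPM (−0.30, −0.57 to −0.02). Glycolysis genes had a median of 0.17, with the glucose transporter Slc2a1 at 3 and 86 UMIs (1.64, 0.04 to 3.95), or 0.78 after thinning and gating again and 0.84 with Ccr2 at 0. Only 3 of 23 cell cycle genes were measured, with a median of 0.08, and Pcna was at 96.5 and 121 CPM. Wnt6, a secreted Wnt ligand (chromosome 1, 74771892 to 74785322), was chosen after its values were seen. It had 0 saline and 165 NP UMIs in 92 cells, at least 5.98-fold higher against the floor, with a lower limit of 2.27 on the log2 scale. Over the alternatives its ratio ranged from 1.48 to 4.17 on that scale. Its share of thinned cells was 0% (up to 9.03%) and 13.8% (10% to 18.3%), with 0% in B cells of both libraries.

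Ly6c2, the mark of classical monocytes, had 2 UMIs in saline members and 184 in NP members (2.74, 1.45 to 6.38), in 1 and 57 cells (2.5% and 19.5%), against log2 ratios of 1.07 in classical and 1.43 in intermediate monocytes. After thinning it was seen in 0% of saline (up to 9.03%) and 10% of NP members (6.8% to 14%), intervals that overlapped, with 2.32% and 3.19% in B cells. The NP level of 68.9 CPM was a log2 ratio of −4.05 under that of NP classical monocytes. Of 11 measured genes of classical identity 2 were 2-fold or more higher and 3 lower, against 4.42% and 3.65% of all measured genes. Their median was −0.58. The sum of all 16 listed genes went the other way, at 4017.4 CPM (3790.1 to 4254.8) in saline and 4665.7 CPM (4584.1 to 4748.3) in NP members. Plac8, the most abundant, was at 2336 and 2707.8 CPM. Hp, haptoglobin, was at 410 and 841 CPM (1.04, 0.77 to 1.31), with a ratio of 0.17 after thinning and gating again. Fn1, fibronectin, was at 82.7 and 21 CPM (−1.98, −2.69 to −1.22), but at 0.43 under the wider gate. The 5 defining classical markers together were at 55.1 CPM in saline and 125 CPM in NP members, with Vcan at 0 in the saline library, and 1 saline and 31 NP members held at least 3 of their UMIs. The gate used Ccr2, 1 of the 5, and the part of such cells in the results was not tested.

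Markers of other cell types were looked at in the same cells. Without the members that held 3 or more UMIs of B cell, T cell, NK cell, endothelial, epithelial, platelet or erythroid markers together, 271 genes were 2-fold or more higher and 240 lower, against 243 and 201 with them. The median log2 ratio was then 0.82 for the TNF and NF-kB list (0.75 with them), 0.98 for the IFN-gamma list (1.11), 1.89 for guanylate-binding proteins (2.21), 2.28 for chemokines (2.52) and 0.75 for class II genes (0.17). The part of the neutrophil, macrophage and dendritic cell genes was not tested. The 5 neutrophil markers made up 1678 CPM in saline and 1245.7 CPM in NP members, led by S100a9 (899 and 582 CPM), whereas barcodes with under 50 UMIs, which hold free RNA, had 98090.1 and 53950.2 CPM of S100a9. The wider list of 20 neutrophil genes held 1884.7 and 1449.1 CPM. Defining markers of T cells, NK cells, platelets and alveolar macrophages were all at 0 in the saline members. In the NP members the T cell markers summed to 5 UMIs, the NK markers to 30, of which 29 were in 1 cell, and the platelet markers to 3. The 4 B cell markers summed to 3 saline and 125 NP UMIs, with 3 NP cells holding 3 or more, and the 3 endothelial markers to 2 and 47. Epithelial markers summed to 36 saline and 137 NP UMIs, led by Scgb1a1 (31 UMIs) in the saline and Sftpc (118 UMIs) in the NP library. The 2 erythroid markers summed to 5 and 623 UMIs, of which 565 were in 1 NP cell. Over the wider lists, T and NK cell genes held 3.45 CPM in saline and 68.9 CPM in NP members, B cell genes 103 and 181, and platelet genes 0 and 1.87. Endothelial genes held 131 and 217 CPM, epithelial 138 and 67.4, stromal 41.3 and 69.7, and erythroid 20.7 and 298. Interstitial macrophage genes held 3.45 and 22.5 CPM, alveolar macrophage genes 200 and 214, and basophil and mast cell genes 6.89 and 24.4. Dendritic cell genes held 5726.4 and 4626.7 CPM, of which Cst3, a cystatin that monocytes also express, made up 5685.1 and 4588.9. Genes that respond to tissue dissociation had a median log2 ratio of −0.10 over 21 measured genes and summed to 14829.4 and 15517.6 CPM.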

How the data were processed

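The authors prepared single-cell libraries from lungs digested with liberase and lysed for red cells, and deposited UMI count matrices, 1 per library, that also hold barcodes with few UMIs. Per the labels and the submitters' processing notes, reads were processed with bcl2fastq and Cell Ranger 6.0 on mm10, while the deposited matrix header names Cell Ranger 4. The deposited counts were not normalized, and no deposited annotation of cells was used. From 9084 saline and 9111 NP barcodes with at least 500 genes, 8662 and 8333 were kept. Total depth was 91168129 and 90081747 UMIs. Counts were summed per class and library and scaled to CPM. Poisson, binomial (Clopper-Pearson) and conditional binomial intervals at 95% cover counting error only. Counts under 3 were set to 3 in ratios. Doublets were called with Scrublet (scanpy 1.11.5, expected rate 0.08) and kept. Of kept cells 102 (1.18%) in the saline and 311 (3.73%) in the NP library were called. Sums and intervals were computed with scipy 1.17.1, numpy 2.4.6 and pandas 2.3.3 under Python 3.11.15, plots were drawn with matplotlib 3.10.9, and scripts were tested on simulated data. Named genes were gate and marker genes, per list the 3 highest and 2 lowest ratios and the 2 most abundant, and the 12 highest and 12 lowest ratios among genes with at least 100 UMIs. They also include the 12 highest and 8 lowest over classical monocytes. The members and the lists were chosen with earlier results of these data known. Alternatives were other limits on cells, genes and the gate, thinning, other totals, a subtraction of free RNA and the removal of doublets. Gene positions are from GENCODE M21 (GRCm38). Results for some named genes are not reported here.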

Additional observations from a re-analysis of the deposited data

Results flagged for a closer look

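Ccl5 had a log2 ratio NP over saline of 4.40 in non-classical and −1.09 in classical monocytes, so the libraries differed in opposite directions in the 2 classes. In intermediate monocytes its ratio was 6.12, at 1.13 CPM in saline and 78.8 CPM in NP cells. The non-classical saline value is 0 UMIs, and the non-classical ratio was 3.81 without the NP cell that held most UMIs. Hbb-bs had 3.66 in non-classical, −2.57 in classical and 0.32 in intermediate monocytes. In non-classical monocytes 429 of its 466 NP UMIs were in 1 cell, and its ratio was 0.42 without the cell with most UMIs in each library. Saa3 had 3.07 in non-classical, −1.27 in classical and −0.82 in intermediate monocytes. Of its 1314 non-classical NP UMIs 793 were in 1 cell, and its ratio there was 2.36 without the cell with most UMIs in each library. In non-classical monocytes its ratio was −0.06 under the wider gate and −0.31 after thinning and gating again. The opposite direction of Saa3 in the 2 classes thus did not hold in each setting. Free RNA, from barcodes with under 50 UMIs, held 1497 CPM of Saa3 in the saline and 388 CPM in the NP library. With 1 library per group these differences between the classes were not tested.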

How the results depend on the processing

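No paired analysis was possible because each group has 1 library and no replicate numbers. For the same reason no replicate could be left out. Under 24 alternatives, of which 5 were chosen after seeing the data, the log2 ratio of the share kept its direction wherever it was computed, from 2.29 to 3.10 of all kept cells and from 1.29 to 2.09 of gated monocytes, against 2.93 and 1.92. The lowest values, 2.29 and 1.29, came from a wider gate of cells with at least 2 UMIs of the 3 gate genes and more of them than of Ccr2, chosen after seeing the data. The share of all kept cells was not recomputed after thinning or after leaving out cells with markers of other types. Under that gate 110 genes were 2-fold or more higher and 61 lower, against 243 and 201. With Ccr2 at 0 the number lower was 341, and after thinning and gating again 396. The gate on thinned cells asked for at least 1 UMI of the 3 gate genes and 0 of Ccr2, and in what follows "after thinning" includes that gate. Depth and gate were not told apart there. With a mean of at least 50 CPM 80 were higher and 37 lower, since fewer genes were tested. With at least 20 CPM in each library, chosen after seeing the data, 109 were higher and 80 lower, since this leaves out genes measured through 1 library alone. With any gene of at least 1 UMI the number of genes 2-fold or more lower was 4977, since the floor of 3 counts stands at a higher CPM in the saline members, which hold fewer UMIs, and the median of all genes was then −0.52 in place of −0.07. The median of the chemokine list, over 7 genes, was 2.52 and moved to 0.65 after thinning, to 1.31 without ribosomal protein and mitochondrial genes in the total, to 0.82 under the gate above, to −0.01 with at least 20 CPM in each library to −0.20 with any gene of at least 1 UMI and to 3.15 with a floor of 1 count. The class II median, 0.17, ranged from −0.07 with any gene of at least 1 UMI to 1.28 with Ccr2 at 0. Medians of the IFN-gamma list ranged from 0.34 to 1.18, of guanylate-binding proteins from 1.00 to 2.51 and of the TNF and NF-kB list from 0.60 to 0.84. Of 154 named genes that were measured and not in the gate, 33 had the other sign under at least 1 alternative, and 5 of these were among the 66 that were 2-fold or more apart. After thinning Cd40 was at −0.07 and Saa3 at −0.31. Under the gate above Fn1 was at 0.43, Parp9 at −0.08 and Saa3 at −0.06. Hbb-bs was at −1.38 without cells that held markers of other cell types, of which it is 1, so that fall was set by the choice of cells. Of the 66, 33 were under 2-fold under at least 1 alternative, 21 of them under the gate above and 19 after thinning. Among them Ccnd2 fell to 0.85 under that gate and Acod1 to 0.70 and Hp to 0.17 after thinning, while Ccl4, still past 2-fold, was at 1.45 under the gate. The causes were not tested. Cxcl2 ranged from 3.30 to 5.79, Id2 from 2.16 to 2.94, Fpr2 from 2.29 to 3.66 and Hpgd from −2.96 to −1.73. Scaled by neutrophil granule and B cell genes, free RNA came to 1.2% of saline and 2.54% of NP member UMIs, which is too much, since S100a8 and S100a9 allow at most 0.631% and 0.827%. Subtracting the former left 244 genes higher and 205 lower, and subtracting the latter, added after seeing the data, 241 and 202. The 40 saline cells and 290234 saline UMIs limit every ratio.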

Other observations

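Other values were read in the same cells, for genes that were chosen after their values were seen. AW112010, a transcript induced in activated immune cells, had 17 saline and 947 NP UMIs in non-classical monocytes (log2 ratio 2.60, 1.91 to 3.38), in 10 and 231 cells, with 1.27 in classical monocytes. Slpi, a secreted inhibitor of leukocyte proteases, had 7 and 421 UMIs (2.71, 1.65 to 4.03) in 6 and 94 cells, and 162 of the NP UMIs lay in 1 cell.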
